A study of Mus musculus with 6 samples.

Results

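GIMAP genes encode GTPases of the immunity-associated protein family and were measured here in regulatory T (Treg) cells, the Foxp3-marked CD4 T cells that restrain immune responses. All 8 members searched for by symbol (Gimap1, Gimap3, Gimap4, Gimap5, Gimap6, Gimap7, Gimap8 and Gimap9) were found among the 14608 genes of the deposited RNA-seq tables. No other symbol starting with Gimap was in them (0 further genes). The 6 libraries came from Treg cells of mouse spleen, sorted as CD4-positive and YFP-positive after magnetic enrichment of CD4 T cells, with 2 libraries for each of 3 genotypes. The labels name them wild type (WT), heterozygous Cdc42 knockout (Cdc42+/-) and homozygous Cdc42 knockout (Cdc42-/-), Cdc42 being a GTPase that organises actin and cell polarity. The labels give no treatment, and the mouse strain, age, sex and any batch are not given in the sources used here. Neither are the driver of YFP, which the sorted cells of every genotype carry, nor the cells in which Cdc42 was deleted. The question the comparison addresses is how Treg gene expression differs with 1 or both Cdc42 copies disrupted.

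GIMAP proteins share a guanine-nucleotide-binding domain and are made mostly by lymphocytes, where several sit on the membranes of mitochondria, lysosomes, the endoplasmic reticulum or the Golgi. Mice and rats without functional Gimap5 lose T cells in the periphery, and mature T and B cells need Gimap1 to persist. Gimap3 and Gimap5 are close relatives that have been linked to proteins of the Bcl2 family, which set the threshold for mitochondrial cell death. Gimap4 has been linked to the execution of T cell death, Gimap6 binds the autophagy protein GABARAPL2, and Gimap8 carries several GTP-binding domains in a single chain.

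The 8 genes lie side by side on chromosome 6, within 123.7 kb (chr6:48647186-48770851, build GRCm38, the same assembly as the mm10 that the submitters' processing notes name). In the RefSeq annotation this span holds 8 protein-coding genes, all of them members, in the order Gimap8, Gimap9, Gimap4, Gimap6, Gimap7, Gimap1, Gimap5 and Gimap3. Gimap3 and Gimap6 are transcribed from the minus strand and the other 6 from the plus strand. Sequence copied within the cluster bears on the read counts of Gimap3 and Gimap5. Their coding sequences were 90.7% identical over aligned bases, the highest aligned identity of any pair of members, and the longest run they shared without a difference was 140 bases. It is shown because a short read from inside it cannot be assigned to 1 of the 2 genes by sequence alone. In Gimap3 it lies in exon 5 of 5 at chr6:48765681-48765820 on the minus strand, at coding bases 175 to 314, and in Gimap5 in exon 3 of 3 at chr6:48752684-48752823 on the plus strand, at coding bases 187 to 326.
Gimap3 and Gimap5, shared coding run: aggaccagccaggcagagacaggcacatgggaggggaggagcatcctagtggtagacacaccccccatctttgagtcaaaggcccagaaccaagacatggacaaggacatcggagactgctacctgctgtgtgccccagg

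In windows of 50 bases, 190 windows occurred in both transcripts, 9.06% of those of Gimap3 and 9.98% of those of Gimap5. Gimap1, Gimap5, Gimap7 and Gimap3 also shared 149, 105, 32 and 8 windows with Gm28053, a further gene that GENCODE annotates. Levels of these 4 genes are uncertain to the extent that the authors' counting split or dropped such reads, and its rule for them is not given in the sources used here. Gimap4, Gimap6, Gimap8 and Gimap9 had 0 windows in any other annotated transcript.

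Promoter windows of RefSeq (GRCm38.p6) matched all 8 members, with 9 windows because Gimap8 has 2 start sites. A search of both strands, from 250 bases before to 50 after each start, found the forkhead motif TGTTTAC in 1 member, Gimap3, against 3.65% of all 32851 windows. A TATA motif (TATAAA) was found in Gimap6 alone, against 13.6% of all windows, and the letters CCAAT in Gimap1, Gimap6 and Gimap9, against 37.4%. The TCF/LEF letters CTTTGAT, the RUNX letters TGTGGTT, the ETS letters CCGGAAG and the AP-1 letters TGAGTCA were in none of the members' windows (0 of 9), against 3.73%, 5.27%, 8.86% and 5.2% of all windows. These matches describe letters only. The 250 bases before the start are shown for the 2 most abundant members, Gimap3 (chr6:48770852-48771101, minus strand) and Gimap6 (chr6:48708245-48708494, minus strand), and for Gimap4 (chr6:48684328-48684577, plus strand), the member with the smallest difference between genotypes below. Capitals mark the motifs found, here all read on the other strand: TGTTTAC in Gimap3, 247 bases before the start, and TATAAA and CCAAT in Gimap6, 219 and 207 bases before it.
Gimap3: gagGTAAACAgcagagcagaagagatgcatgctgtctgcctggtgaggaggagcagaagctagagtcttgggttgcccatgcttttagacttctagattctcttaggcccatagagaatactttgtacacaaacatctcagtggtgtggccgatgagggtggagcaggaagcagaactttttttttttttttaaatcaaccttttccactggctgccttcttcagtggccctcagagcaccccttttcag
Gimap6: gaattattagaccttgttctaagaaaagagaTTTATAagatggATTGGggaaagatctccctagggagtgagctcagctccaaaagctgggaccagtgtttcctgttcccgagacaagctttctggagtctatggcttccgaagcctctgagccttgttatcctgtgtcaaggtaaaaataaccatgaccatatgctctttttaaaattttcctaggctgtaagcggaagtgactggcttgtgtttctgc
Gimap4: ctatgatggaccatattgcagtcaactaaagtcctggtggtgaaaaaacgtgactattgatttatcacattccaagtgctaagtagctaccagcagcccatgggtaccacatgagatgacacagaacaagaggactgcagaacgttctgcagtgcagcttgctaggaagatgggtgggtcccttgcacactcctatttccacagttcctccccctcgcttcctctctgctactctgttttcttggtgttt

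The tables held between 8556576 and 17796100 reads per library, and a member had between 330 and 32057 reads in a library. Cdc42 itself, the targeted gene, was at 166 and 161 RPKM (reads scaled by gene length and library depth) in the WT pair, at 164 and 156 in the pair labelled Cdc42+/- and at 122 and 173 in the pair labelled Cdc42-/-. It therefore does not check the labels; which exons were deleted is not given in the sources used here, and the genotypes below are those of the labels. The library labelled Cdc42-/- replicate 2 stood apart: 12 myeloid marker genes summed to 1802 RPKM in it against 50.9 to 101 RPKM in the other 5, and their leading gene Lyz2 was at 600.2 RPKM against at most 9.75 RPKM. Its 5 erythroid marker genes in the tables summed to 106 RPKM, against 14.5 RPKM in Cdc42-/- replicate 1 and 1.18 to 4.68 RPKM in the WT and Cdc42+/- libraries, whereas 8 B cell markers lay between 11.2 and 23.1 RPKM in the 6 libraries, 6 CD8 and NK cell markers between 11.4 and 17.7 RPKM, and 7 endothelial and stromal markers between 40.8 and 63.6 RPKM. Single genes made up much of the last 2 sums, Cd8b1 at 6.31 to 7.73 RPKM and Pecam1 at 35.3 to 57.5 RPKM. Cd8a was at 4.23 RPKM in Cdc42-/- replicate 2 and at no more than 1.13 RPKM in the other 5. Cdc42-/- replicate 2 also held both Xist (21.2 RPKM), expressed from the inactive X chromosome, and the Y-linked Ddx3y (27.5 RPKM), while the WT libraries held Ddx3y with Xist at no more than 1.13 RPKM and the other 3 held Xist with Ddx3y at no more than 0.126 RPKM. Every comparison with WT was thus also one of libraries with Ddx3y and almost no Xist against libraries with Xist, and the labelled genotype and the sex of the mice cannot be told apart in it. Cdc42-/- replicate 1 and the Cdc42+/- libraries were alike in this respect. Results are therefore given with and without Cdc42-/- replicate 2, and against both other genotypes. The labels do not say whether libraries of a genotype were prepared separately from start to end, so p-values measure only the spread between these libraries.

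Markers of the sorted cells were present in every library: none of 10 CD4 T and Treg markers was at 0 reads, and Foxp3 was at 131 and 118 RPKM in the WT pair, 113 and 103 in the Cdc42+/- pair and 118 and 58.4 in the Cdc42-/- pair.

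WT Treg cells carried all 8 GIMAP transcripts, and Gimap3 was the most abundant. The 8 genes together reached 1994 and 1859 RPKM in the WT libraries and took 0.493% and 0.453% of all reads. Gimap3 held 42.4% and 41.6% of that summed RPKM and ranked 76 and 85 among all 14608 genes by RPKM. Gimap6 came next, with 20.4% and 19.8%, at ranks 115 and 125. Gimap5, the other close relative of Gimap3, was the lowest member, at ranks 1632 and 1554 and with 2.20% and 2.44% of the summed RPKM. Per length, the mean WT levels fell in the order Gimap3 (809 ± 51.6 RPKM, SD, n = 2), Gimap6 (387), Gimap4 (179), Gimap1 (166), Gimap7 (119), Gimap9 (112), Gimap8 (110) and Gimap5 (44.6). The WT libraries of Gimap9 and Gimap8 overlapped, so that pair has no order beyond its spread, and the libraries of every other pair of neighbours in this order were separate. The order also depends on the length used. The authors' RPKM divides Gimap4 reads by 5816 bases, whereas the annotated coding transcript of Gimap4 in GENCODE is 1804 bases long. If all its reads fell within that transcript, its WT level would be 576 RPKM and second to Gimap3. Gimap8, counted over 6111 bases against a coding transcript of 3138 bases, would on the same assumption reach 214 RPKM and pass Gimap1. Where the reads fell cannot be seen in these data, so both levels are upper limits. For the other 6 members the 2 lengths gave close levels, farthest apart for Gimap1 (166 and 177 RPKM).

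**Figure D1:**
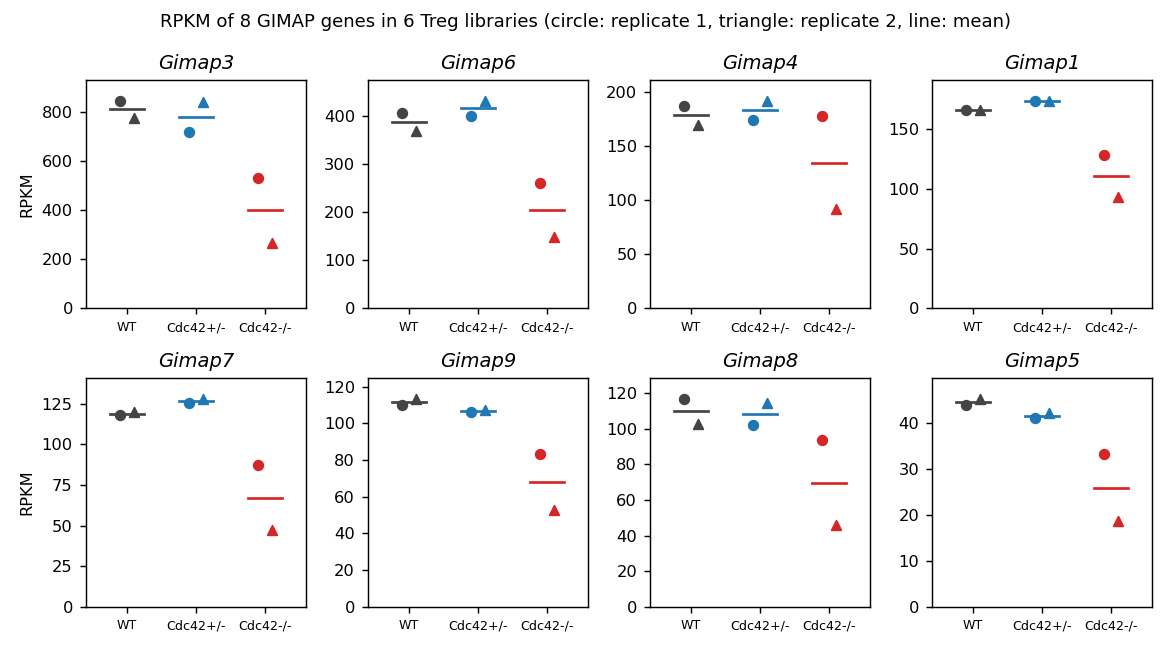
RPKM of each GIMAP gene (vertical axis, linear, from 0) in the 2 libraries of each genotype as labelled (horizontal axis), with circles for replicate 1, triangles for replicate 2 and a line for the mean. Every member was lowest in the library labelled Cdc42-/- replicate 2, and Gimap4 is the member whose Cdc42-/- replicate 1 value (178 RPKM) lies among the WT values (187 and 170 RPKM).

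In the libraries labelled Cdc42+/-, GIMAP levels were close to those of WT. The summed level was 1837 and 2029 RPKM, against 1994 and 1859 RPKM in WT, and these ranges overlap. Fitted log2 fold changes on the log2(RPKM + 1) scale ran from -0.10 for Gimap5 to 0.10 for Gimap6. None of the 8 passed an adjusted p of 0.05 in limma (adjusted p 0.999 for each), none had an unadjusted p under 0.05 (4.32% of all genes did), and the voom fit called 0 of them too. Of all 12233 genes tested in that comparison 0.0% passed. For the most abundant member, Gimap3, the 95% interval of the difference ran from -0.81 to 0.69, and for Gimap1, the member with the tightest one, from -0.32 to 0.45. Libraries of the 2 genotypes were separate for Gimap1 and Gimap7, higher in Cdc42+/- (26.2% of all genes tested were so), and for Gimap5 and Gimap9, lower in Cdc42+/- (17.0% of all genes). Gimap1, for example, was at 165.7 and 165.5 RPKM in WT and at 173.4 and 173.3 RPKM in Cdc42+/-, or 105% of the WT mean, which the fit, with its spread taken over all genotypes, did not separate. In the authors' deposited table for this comparison the adjusted p-values of the members ran from 0.761 to 1, and 2.28% of all genes were under 0.05.

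In the libraries labelled Cdc42-/-, all 8 GIMAP genes had lower mean RPKM than in WT, and the summed level was 1394 and 766 RPKM against 1994 and 1859 RPKM. That is 72.4% and 39.8% of the WT mean for replicates 1 and 2, so the 2 libraries of the genotype differed from each other by more than replicate 1 differed from the WT mean. No member passed the adjusted threshold in limma with all 6 libraries (0 of 8, against 11.4% of all genes tested, 4.57% called lower). An unadjusted p under 0.05 was reached by 6 of the 8, all lower, where 13.3% of all genes had such a p in that direction. For 7 of 8 both Cdc42-/- libraries lay below both WT libraries, which was so for 27.1% of all genes. The median log2 fold change of the members was -0.78, against 0.01 over all genes. In bulk RNA of this kind, fewer cells expressing a gene and less of its RNA per cell cannot be told apart.

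Of the members tied to T cell survival, Gimap3 was at 846 and 773 RPKM in the WT pair, 716 and 839 in the Cdc42+/- pair and 530 and 268 in the Cdc42-/- pair. Both values of the last genotype were below the other 4, and the ratio of replicate 2 to replicate 1 was 0.505. Its log2 fold change against WT was the lowest of the members, -1.10 (SE 0.31, 95% interval -1.85 to -0.35, limma adjusted p 0.0730). Gimap5 was at 43.9 and 45.3 RPKM in the WT pair, 41.1 and 42.1 in the Cdc42+/- pair and 33.3 and 18.6 in the Cdc42-/- pair. The Cdc42-/- libraries again lay below the rest, with a log2 fold change of -0.81 (SE 0.25, interval -1.42 to -0.21, limma adjusted p 0.0912). Gimap1, needed for mature lymphocytes to persist, was at 128 and 92.8 RPKM in Cdc42-/-, below all 4 other libraries, which spanned 165.5 to 173.4 RPKM. It differed least between the 2 Cdc42-/- libraries (ratio 0.723), and its log2 fold change against WT was -0.60 (SE 0.16, interval -0.99 to -0.21, limma adjusted p 0.0649).

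Gimap6, the autophagy-linked member, was at 406 and 369 RPKM in the WT pair, 399 and 432 in the Cdc42+/- pair and 260.0 and 149 in the Cdc42-/- pair. Its libraries did not overlap between Cdc42-/- and either other genotype, and it had the smallest p of the members, with a log2 fold change of -0.97 (SE 0.25, interval -1.58 to -0.36, limma adjusted p 0.0600). Gimap4, the death-linked member, stood apart from the rest in Cdc42-/- replicate 1, though no test compared it with the other members. It was at 187 and 170 RPKM in the WT pair, 174 and 193 in the Cdc42+/- pair and 178 and 92.3 in the Cdc42-/- pair, so replicate 1 was at 99.5% of the WT mean and replicate 2 at 51.6%. The Cdc42-/- and WT libraries of Gimap4 overlapped, and its log2 fold change was -0.48 (SE 0.29, interval -1.18 to 0.23, limma adjusted p 0.318).

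The other 3 members lay between Gimap3 and Gimap4 in their fold change. Gimap7 was at 118 and 120 RPKM in the WT pair, 125 and 128 in the Cdc42+/- pair and 87.3 and 47.0 in the Cdc42-/- pair, for a log2 fold change against WT of -0.88 (limma adjusted p 0.0873). Gimap9 stood at 110 and 113 RPKM in the WT pair, 106 and 107 in the Cdc42+/- pair and 83.2 and 52.8 in the Cdc42-/- pair, for -0.74 (adjusted p 0.0693). For both genes the Cdc42-/- libraries lay under the other 4. Gimap8, the longest member, was at 117 and 103 RPKM in the WT pair, 102 and 115 in the Cdc42+/- pair and 93.5 and 45.9 in the Cdc42-/- pair. Its replicate 1 lay just below the lowest WT library, at 85.2% of the WT mean, and its log2 fold change was -0.73 (interval -1.48 to 0.02, adjusted p 0.180).

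**Figure D2:**
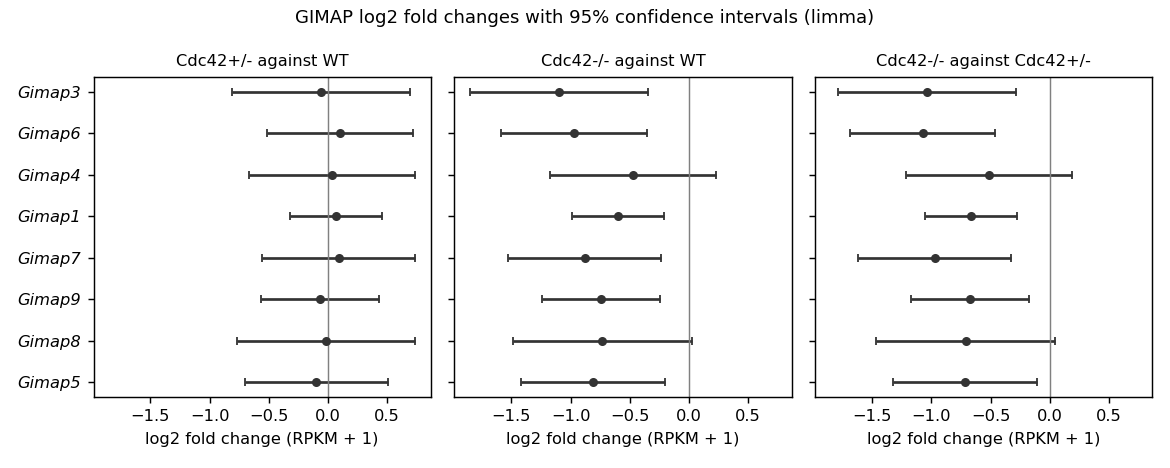
Log2 fold change on the log2(RPKM + 1) scale (horizontal axis) of each GIMAP gene (rows) in the 3 comparisons of genotypes as labelled, with points for limma's estimates and bars for 95% confidence intervals. The Cdc42+/- intervals all include 0, and against WT the Cdc42-/- intervals of Gimap4 and Gimap8 include 0 while those of the other 6 lie below it.

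How many members passed changed when either library labelled Cdc42-/- was left out, and the fit without replicate 2 is given first. Without it, 6 of 8 passed against WT, all lower (8.61% of all genes were called lower in that fit), with the remaining Cdc42-/- library assumed to vary like the other groups. These were Gimap6 (log2 fold change -0.57, limma adjusted p 0.0103), Gimap7 (-0.44, 0.0110), Gimap9 (-0.42, 0.0138), Gimap3 (-0.61, 0.0184), Gimap1 (-0.37, 0.0198) and Gimap5 (-0.41, 0.0254). Gimap8 (-0.23, adjusted p 0.223) and Gimap4 (-0.01, adjusted p 0.978) did not. The fold changes of the 6 were thus smaller without replicate 2, while their standard errors were smaller as well: the SE of Gimap3 went from 0.31 to 0.12. With replicate 1 left out in its place, all 8 passed against WT (15.4% of all genes were called lower), at a median of -1.23. Either fit leaves 1 Cdc42-/- library and so holds none of the spread between the pair. With both kept, each member's SD was larger in Cdc42-/- than in WT or Cdc42+/-, for Gimap3 186 RPKM against 51.6 and 87.3. Passing in such a fit is therefore no separate evidence of a difference. The same limit holds below for every gene and list in fits with 1 Cdc42-/- library. In the authors' deposited table, Gimap3 (log2 fold change -1.06, adjusted p 0.00972) and Gimap6 (-0.96, 0.0132) were under 0.05 and the other 6 members ran from 0.0580 for Gimap7 to 0.513 for Gimap4, where 2.66% of all genes were called lower. Voom on the recovered reads called Gimap6 alone (adjusted p 0.0458), where 4.78% of all genes were called lower, and array weights called Gimap6 and Gimap9 (2.58% of all genes lower).

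Against the libraries labelled Cdc42+/-, the members of the libraries labelled Cdc42-/- gave a like picture, in a comparison that shares its Cdc42-/- libraries with the one above. None of 8 passed in limma (8.22% of all genes tested passed, 3.54% lower), 6 of 8 had an unadjusted p under 0.05 with a lower value (13.5% of all genes), and 7 of 8 had separate libraries (30.4%). Adjusted p-values ran from 0.0556 for Gimap6 (log2 fold change -1.07) to 0.301 for Gimap4 (-0.51), with a median of -0.71 against -0.01 over all genes. Voom called Gimap6 (adjusted p 0.0409), with 3.84% of all genes called lower, a filter of 2 RPKM also called Gimap6 (4.59% lower), and array weights called Gimap1, Gimap6 and Gimap7 (2.43% lower). Without Cdc42-/- replicate 2, Gimap1, Gimap3, Gimap6, Gimap7 and Gimap9 passed, 5 of 8 (7.6% of all genes were called lower), and without replicate 1 all 8 did (15.5%).

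The 2 libraries labelled Cdc42-/- were ordered the same way for every member. Replicate 2 was below replicate 1 for 8 of 8, at ratios from 0.491 for Gimap8 to 0.723 for Gimap1, where 46.0% of all genes tested had that order. For 7 of 8, replicate 2 was below replicate 1 and replicate 1 below all 4 libraries of the other genotypes, an order found for 13.5% of all genes. In percent of the WT mean, replicate 1 ran from 65.5% (Gimap3) and 67.1% (Gimap6), the 2 most abundant members, up to 85.2% (Gimap8) and 99.5% (Gimap4), and replicate 2 from 33.1% (Gimap3) to 56.0% (Gimap1). The share of Gimap3 in the summed GIMAP RPKM was 38.0% and 34.9% in the Cdc42-/- libraries against 42.4% and 41.6% in WT, and that of Gimap4 12.8% and 12.04% against 9.40% and 9.16%. Replicate 2 is the library with the high myeloid and erythroid marker sums, and the part of these in its GIMAP levels was not tested. In replicate 1, where the summed GIMAP level was 72.4% of WT, the myeloid sum (86.4 RPKM) lay within the range of the WT and Cdc42+/- libraries and the erythroid sum (14.5 RPKM) lay above it. In the fit without replicate 2, 3 of 12 myeloid and 1 of 5 erythroid markers were called higher against WT (9.89% of all genes were), and 0 and 2 against Cdc42+/- (7.28%), and their part in the GIMAP levels of replicate 1 was not tested either.

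**Figure D3:**
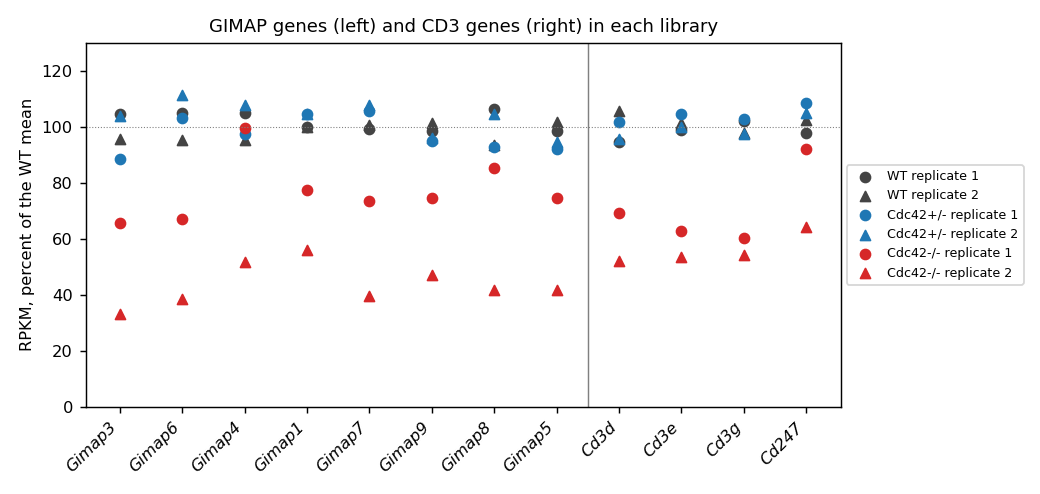
RPKM of the 8 GIMAP genes (left) and of 4 CD3 genes (right) as percent of the WT mean (vertical axis, linear, from 0) in each of the 6 libraries, coloured by genotype as labelled with circles for replicate 1 and triangles for replicate 2. Cdc42-/- replicate 1 ranges from 65.5% to 99.5% and replicate 2 from 33.1% to 56.0% over the GIMAP genes, and Cd3d, Cd3e and Cd3g are low in the same 2 libraries.

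Genes of the CD3 complex, the signalling chains of the T cell receptor, are given beside the GIMAP genes because they mark T cells. Cd3d, Cd3e and Cd3g fell in the libraries labelled Cdc42-/- against WT, with log2 fold changes of -0.73, -0.78 and -0.80 (limma adjusted p 0.0379, 0.0126 and 0.00895). Without replicate 2 their log2 fold changes were -0.52, -0.67 and -0.73. None of these 3 calls held when a WT or Cdc42+/- library was left out. Cd247 did not pass (-0.37, adjusted p 0.215). Among the 10 CD4 T and Treg markers 4 fell, the fourth being Ikzf2 (-0.90, adjusted p 0.0311), a transcription factor of Treg cells, and 0 rose (4.57% of all genes fell and 6.86% rose). Ctla4, an inhibitory receptor of Treg cells, had the opposite sign, at 202 and 201 RPKM in the Cdc42-/- pair against at most 157 RPKM in the other 4 libraries (0.49, adjusted p 0.0524). It passed without Cdc42-/- replicate 1 (0.49, adjusted p 0.0215) and without replicate 2 (0.49, 0.0342), so the markers then counted 9 that fell and 1 that rose (15.4% and 20.8% of all genes in that fit), and 4 that fell and 1 that rose (8.61% and 9.89%). The 1 of 10 that rose is near or below these shares. Against Cdc42+/-, where 3.54% of all genes fell, the same 4 markers fell, Cd3d (-0.71), Cd3e (-0.81), Cd3g (-0.80) and Ikzf2 (-0.94, adjusted p of the 4 at most 0.0486), and Ctla4 again missed the threshold (0.53, adjusted p 0.0504). There 8 fell and 1 rose without Cdc42-/- replicate 1 (15.5% and 19.3% of all genes), and 5 fell and 1 rose without replicate 2 (7.6% and 7.28%). Without any 1 of the WT or Cdc42+/- libraries 0 of the markers passed in either comparison. The 4 CD3 genes summed to 1074 and 1094 RPKM in the WT pair, 1121 and 1064 in the Cdc42+/- pair and 700.4 and 585 in the Cdc42-/- pair, which is 64.6% and 54.0% of the WT mean. Divided by this sum, the GIMAP total was at 112% of the WT mean in Cdc42-/- replicate 1 and at 73.6% in replicate 2. Gimap4 had the highest ratios in replicate 1, 154% of WT, and Gimap3 the lowest in both, 101% and 61.2%. When all genes were scaled in this way, a choice made after seeing the data, the log2 fold changes of the members against WT ran from -0.34 (Gimap3) to 0.28 (Gimap4), 4 members were above 0 (Gimap1, Gimap4, Gimap8 and Gimap9), and none passed (limma adjusted p from 0.317 to 0.975, 0 with an unadjusted p under 0.05). Of all genes tested 54.0% passed in that fit, and 61.5% had an unadjusted p under 0.05. The scaling shifts every gene of a library alike, and because the CD3 genes themselves were lower it moved the median of all genes from 0.01 to 0.68, so by construction the members with the smallest differences turned positive. The signs after it say only how a member's difference compares with that of the CD3 sum.

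**Figure D4:**
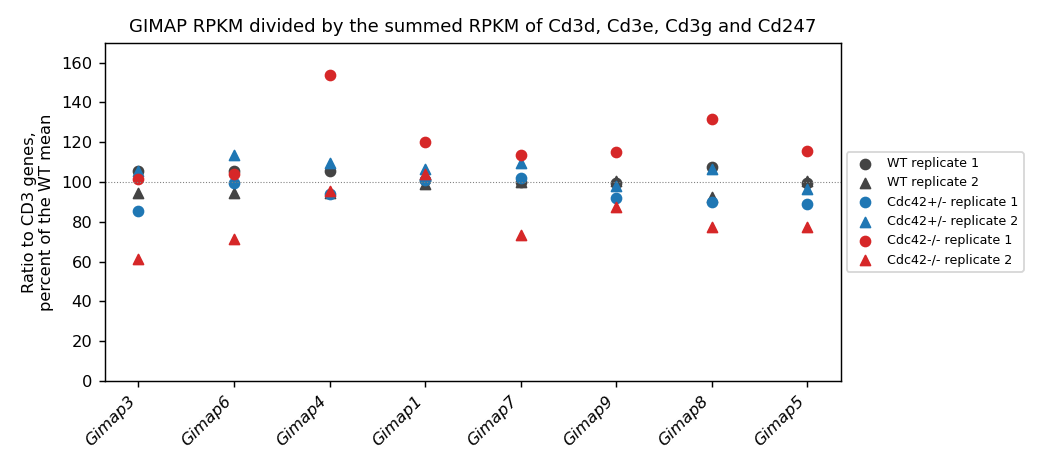
RPKM of each GIMAP gene divided by the summed RPKM of Cd3d, Cd3e, Cd3g and Cd247, as percent of the WT mean (vertical axis, linear, from 0), in each library of the genotypes as labelled. Cdc42-/- replicate 1 lies between 101% (Gimap3) and 154% (Gimap4), and replicate 2 between 61.2% (Gimap3) and 104% (Gimap1).

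Proteins that GIMAP members bind or act with form a list of 10 genes, all tested. In the libraries labelled Cdc42-/- against WT, 1 rose and 1 fell, and the median log2 fold change was 0.00, against 0.01 over all genes. Of all genes tested 6.86% rose and 4.57% fell in that comparison, so 1 of 10 each way is near the background. Bak1, which forms pores in the mitochondrial membrane during cell death, rose, from 21.4 and 23.2 RPKM in WT to 43.5 and 50.2 RPKM, with 27.9 and 29.0 RPKM in Cdc42+/- (log2 fold change 1.04, limma adjusted p 0.00493). Bcl2, which blocks such pores, fell, from 70.8 and 67.7 RPKM in WT to 46.0 and 38.3 RPKM, with 54.1 and 57.6 RPKM in Cdc42+/- (-0.71, adjusted p 0.0178). Neither gene's Cdc42-/- libraries overlapped those of another genotype, and without replicate 2 the log2 fold changes were 0.94 for Bak1 and -0.58 for Bcl2. Leaving out either WT library ended both calls (adjusted p up to 0.0628 for Bak1 and 0.134 for Bcl2), and leaving out either Cdc42+/- library ended that of Bcl2. Over the list, 2 rose and 1 fell without replicate 2 (9.89% and 8.61% of all genes did), and 2 rose and 2 fell without replicate 1 (20.8% and 15.4%). Against Cdc42+/-, where 4.68% of all genes rose and 3.54% fell, Bak1 passed (adjusted p 0.0234) and Bcl2 did not (0.0980), and the call of Bak1 was lost when any 1 WT or Cdc42+/- library was left out (adjusted p up to 0.217).

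T cell quiescence genes, which hold resting lymphocytes out of the cell cycle, moved in both directions. Of 16 tested, 2 rose and 3 fell in the libraries labelled Cdc42-/- against WT, with a median of -0.10 (6.86% and 4.57% of all genes rose and fell). Btg1 (log2 fold change -1.10, limma adjusted p 0.00310) and Btg2 (-0.72, 0.0234), which restrain cell division, and the transcription factor Foxp1 (-0.90, 0.0123) fell. Klf2, which keeps T cells recirculating, rose (0.98, adjusted p 0.0192), as did the chromatin organiser Satb1 (0.96, 0.0223), for which the Cdc42-/- libraries were at 113 and 79.4 RPKM against 48.3 and 48.1 RPKM in WT. Without Cdc42-/- replicate 2 the counts were 4 rose and 3 fell, with a median of 0.11 (9.89% and 8.61% of all genes), and without replicate 1 they were 2 and 9, with a median of -0.38 (20.8% and 15.4%), so the list's median changed sign with the library. Btg1 alone of the 5 passed whichever of the 6 libraries was left out (adjusted p at most 0.0476), and without any 1 of the WT or Cdc42+/- libraries the counts were 0 and 1. Against Cdc42+/- the same 5 genes passed with the same signs, at a median of -0.21 for the list (4.68% of all genes rose and 3.54% fell). The counts there were 4 rose and 5 fell without replicate 2 (7.28% and 7.6% of all genes), 2 and 7 without replicate 1 (19.3% and 15.5%), 0 and 1 without either WT library, and 0 and 0 without either Cdc42+/- library (adjusted p of Btg1 up to 0.128).

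Another family of GTPases of immunity, the interferon-induced IRG, GBP and Mx proteins, had mostly higher fitted levels. Of 16 tested, 13 had a log2 fold change above 0 in the libraries labelled Cdc42-/- against WT, with a median log2 fold change of 0.31. Only Gbp2 passed the test among them (1.06, limma adjusted p 0.00875), at 160 and 125 RPKM against 67.8 and 66.8 RPKM in WT, and none fell (6.86% of all genes rose and 4.57% fell). Without replicate 2, 9 rose and 0 fell (9.89% and 8.61% of all genes), at a median of 0.58, and without replicate 1, 2 rose and 4 fell (20.8% and 15.4%), at a median of 0.08. Without either WT library 0 passed (adjusted p of Gbp2 up to 0.0900). Against Cdc42+/-, 13 of 16 were again above 0, at a median of 0.48, and 9 had an unadjusted p under 0.05 (27.1% of all genes did, in either direction). Gbp2 (1.35, limma adjusted p 0.00883), Gbp3 (0.56, 0.0271) and Iigp1 (1.21, 0.0312) rose (4.68% of all genes did). There 13 rose and 0 fell without replicate 2 (7.28% and 7.6% of all genes), at a median of 0.70, and 4 rose and 3 fell without replicate 1 (19.3% and 15.5%), at a median of 0.20. Without replicate 1 the list's counts were near the background in that comparison. Of the 3, 1 passed without either WT library and 0 without either Cdc42+/- library. Proliferation genes had the largest medians of these 4 lists, with 20 of 20 rising against WT (6.86% of all genes did) at a median of 3.34, and 17 to 20 when 1 library was left out. Against Cdc42+/- 19 of 20 rose (4.68% of all genes did), at a median of 1.95, the exception being Tyms (1.16, adjusted p 0.0571). Left without either Cdc42+/- library, that comparison called 0 of the 20 (and 0 of all genes), at medians of 2.03 and 1.84, and without either WT library it called 15. In Cdc42+/- against WT, 0 genes passed in any of these 4 lists. All 20 proliferation genes had higher fitted levels there as well, at a median of 1.37 against 0.03 over all genes, and 16 of the 20 had an unadjusted p under 0.05 (4.32% of all genes did). In the other 3 lists such a p was reached by 2 of 10 partners, 0 of 16 quiescence genes and 1 of 16 IRG, GBP and Mx genes.

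The genes whose profile over the 6 libraries lay nearest to the mean GIMAP profile were sought next. Likeness was taken as the root mean square distance between a gene's centred log2(RPKM + 1) values and the members' mean profile, over the 8469 genes whose mean reached 5 RPKM, as a description with no test, and each member is part of that mean profile. Gimap5 was the nearest member (0.0560) and Gimap3 the farthest (0.149), and 126 genes outside the family, 1.49%, were within that distance. The 6 nearest named genes were Il6st (0.0595), the signalling chain of the interleukin-6 receptor, the costimulatory receptor Cd27 (0.0654), Thada (0.0670), Izumo4 (0.0715), Accs (0.0742) and the kinase Dyrk1b (0.0749). All 6 were nearer to the mean profile than 7 of the 8 members were. Cd27 was at 197 and 209 RPKM in the WT pair, 188 and 199 in the Cdc42+/- pair and 142 and 87.6 in the Cdc42-/- pair. Il6st was at 70.2 and 60.1, 64.1 and 69.7, and 50.5 and 26.3 RPKM in the same order. Their order over the libraries follows from the choice by likeness and is no result about them.

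Outside the cluster, neighbouring genes mostly had low levels in these cells. The nearest protein-coding genes in the tables, 4 on each side, were Lrrc61, Rarres2, Repin1 and Zfp775 before Gimap8 and Tmem176b, Tmem176a, Aoc1 and Gpnmb after Gimap3, and 7 of the 8 were at no more than 5.48 RPKM in every library. Lrrc61, 76.5 kb before the cluster, was at 17.1 and 17.0 RPKM in the WT pair, 19.7 and 17.3 in the Cdc42+/- pair and 11.2 and 7.36 in the Cdc42-/- pair. It fell against WT (log2 fold change -0.84, limma adjusted p 0.0482), and its log2 fold change was -0.57 without replicate 2. The call was lost when a WT or Cdc42+/- library was left out. The same held against Cdc42+/- (-0.95, adjusted p 0.0416; without replicate 2 -0.67, 0.0218; without a WT or Cdc42+/- library up to 0.286). The annotated span of Rarres2 overlaps that of Lrrc61, and Repin1 and Zfp775 lie between Lrrc61 and Gimap8. Rarres2, Repin1 and Zfp775 did not pass against WT (limma adjusted p 0.231, 0.854 and 0.915), with fitted changes of 0.60, -0.09 and -0.05. After the cluster, the 3 tested genes had fitted changes above 0 against WT and did not pass: Gpnmb at 1.13 (adjusted p 0.0523), Tmem176b at 0.93 (0.159) and Tmem176a at 0.48 (0.523). Gpnmb, a membrane glycoprotein, was at 1.69 and 1.76 RPKM in the Cdc42-/- pair and at no more than 0.680 RPKM in the other 4 libraries, and it passed without replicate 2 (1.11, adjusted p 0.0420) and without replicate 1 (1.15, 0.0247). Against Cdc42+/- none of the 3 passed (Gpnmb 0.81, adjusted p 0.130; Tmem176b 0.79, 0.234; Tmem176a 0.24, 0.763), nor did Rarres2 (1.18, 0.0623), and Gpnmb did not without either Cdc42-/- replicate (adjusted p 0.0703 and 0.122). Tmem176b was at 1.98 and 5.34 RPKM in the Cdc42-/- pair, against 1.31 and 1.24 RPKM in the WT pair. Along the cluster, the lowest percentages of WT in replicate 1 were those of Gimap3 at its far end and Gimap6 near its middle. Gimap4, next to Gimap6, had the highest. Whether the members' differences follow position was not tested.

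**Figure D5:**
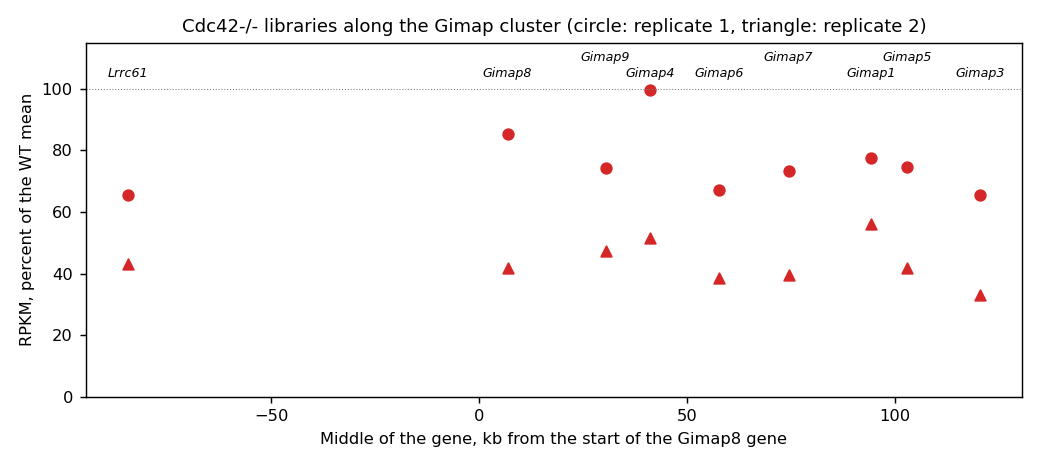
RPKM in the 2 libraries labelled Cdc42-/- as percent of the WT mean (vertical axis, linear, from 0; circles replicate 1, triangles replicate 2) against the position of the gene's middle in kb from the start of the Gimap8 gene (horizontal axis), with the neighbour Lrrc61. Triangles lie below circles for each gene shown, and Gimap4 (99.5% and 51.6%) sits beside Gimap6 (67.1% and 38.5%).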

How the data were processed

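RNA-seq was made from 6 libraries of sorted splenic Treg cells. Per the submitters' processing notes, TopHat and the mm10 build were used; versions, counting tool, strand setting and filters are not given in the sources used here. The authors deposited 2 tables of 14608 genes, Cdc42+/- against WT and Cdc42-/- against WT, which share the WT columns. Each holds RPKM per library as computed by the authors (unit worked out from the values, since no header names it), and, per the file headers, a mean per group, which in the values is a signal of size-factor-scaled reads, a fold change and its log2, and p-values with and without adjustment, all made by the authors. The authors' test is not named in the headers. Columns were matched to samples by description, with 0 columns of unknown sample.

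Reads were recovered from the RPKM columns and gene lengths, and 100% of values came out whole within 0.001 reads. The main test was limma 3.58.1 in R 4.3.3 (lmFit, eBayes with trend) on log2(RPKM + 1), over the 12233 genes averaging 0.5 RPKM or more; 1 fit held the 6 libraries, and p-values (two-sided) were adjusted by Benjamini-Hochberg at 0.05. Fold changes on this scale understate those of low genes. Steps were tested on simulated data. Alternatives were a pseudocount of 0.1, no filter, a filter of 2 RPKM, upper-quartile scaling, voom with TMM factors on the recovered reads, array weights, a replicate block, only the genotypes compared, leaving out each library and, added after seeing the data, scaling to 4 CD3 genes. The labels do not say whether replicate numbers pair libraries. Deviations from group means correlated at 0.02, 0.20 and -0.03 between same-numbered libraries. Members and gene lists were chosen with earlier results of these data known. Named were the 8 members, up to 4 passing genes of each list with the smallest p, 6 genes of like profile and 4 neighbours on each side; Btg2, Ctla4 and Tyms were added after their values were seen. Alignments used Biopython 1.88 and GENCODE vM21 transcripts. The results of 1 further list are not reported here.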

Additional observations from a re-analysis of the deposited data

How the results depend on the processing

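All-gene counts, for Cdc42-/- against WT (1398), Cdc42-/- against Cdc42+/- (1006) and Cdc42+/- against WT (0), became 885 with array weights in the first, 536, 276 and 60 with only the genotypes compared, and 6609 and 6442 with CD3 scaling in the first 2. Cdc42+/- against WT gave 1 with voom and 88 with array weights. Leaving out 1 library gave 259 (WT replicate 1) to 4433 (Cdc42-/- replicate 1), 0 (either Cdc42+/- library) to 4263 (Cdc42-/- replicate 1) and 0 to 76 calls. Members called (0 in each) became 1 with voom (4.78% of all genes were called lower) and 2 with array weights (Gimap6, Gimap9, 2.58%) against WT. Against Cdc42+/- they became 1 with voom (3.84%), 1 with a filter of 2 RPKM (Gimap6, 4.59%) and 3 with array weights (Gimap1, Gimap6, Gimap7, 2.43%). Leaving out 1 library gave 0 to 8 members in both, the 8 without Cdc42-/- replicate 1. Upper-quartile scaling changed the split of calls against WT from 839 higher and 559 lower to 731 and 753, with 0 members called.

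Directions turned for 16 of 360 member values. With CD3 scaling these were, against WT, Gimap1 (0.16), Gimap4 (0.28), Gimap8 (0.019) and Gimap9 (0.0062), and against Cdc42+/- Gimap1 (0.10), Gimap4 (0.25), Gimap5 (0.030), Gimap8 (0.049) and Gimap9 (0.083). In Cdc42+/- against WT, where fold changes are near 0, Gimap4 turned with voom (-7.9e-06), and leaving out 1 library gave -0.18 to 0.054 for Gimap3, -0.11 to 0.072 for Gimap8, and -0.036 to 0.11 for Gimap4. The CD3 scaling turns the smallest differences by construction, since it shifts all genes of a library alike, and the cause of the other turns was not tested. A further 35 values passed the threshold only under an alternative and 309 kept direction and side. With the replicate block 0 members were called in each comparison (1144, 809 and 0 genes in all), so the block changed no member's call. The lone library left in a genotype is assumed to vary like the others.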
